A study of Equus asinus with 3 samples.

Results

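BSPH1 (binder of sperm protein homolog 1) and CLU (clusterin) were followed through 3 single-cell RNA libraries of donkey (Equus asinus), from testis, epididymal caput (head) and epididymal corpus (body). The members were 2 genes chosen by name out of 34267 features found in any library. CLU was listed by its symbol, and BSPH1 as LOC106838299, which a RefSeq gene table (assembly EquAss-T2T_v2, used for names and neighbours only) gives as BSPH1. Tissue came from 3 sexually mature males with no treatment stated, and the labels do not tie animals to libraries, so each tissue was 1 sample. The labels give germ cells for testis and somatic cells for both epididymal libraries, and describe no sort. The cauda was not analysed here.

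BSPH1 belongs to the binder of sperm proteins, small secreted proteins with paired fibronectin type II domains that attach to choline phospholipids of the sperm membrane. They are known for altering membrane lipids as sperm gain the capacity to fertilize. CLU is a secreted, glycosylated chaperone that holds unfolded proteins in solution outside cells. It is known as an abundant product of the epididymal epithelium and of Sertoli cells, and lipoprotein receptors of the LRP family can take it up.

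Each tissue had 1 library, so no difference below has a replicate check and none carries a p-value. Intervals are 95% intervals that cover counting error only. Levels are counts of unique molecular identifiers (UMIs, 1 per captured transcript) summed over cells and given as counts per 1000000 UMIs (CPM). A gene was called between tissues where the whole interval of the ratio lay beyond 4-fold, and the higher side had 50 UMIs or more. Libraries held 47686179 UMIs in testis, 13203203 in caput and 4142512 in corpus. Kept cells numbered 8529, 9475 and 9606, with a median of 4693, 1145 and 371 UMIs. Doublet calling marked 3 barcodes each in caput and corpus and did not work there, so doublets remain. Barcodes are named by running number, so barcodes shared between libraries could not be counted.

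Both genes were high in caput, far lower in corpus and lowest in testis. BSPH1 reached 6851 CPM in caput (90400 UMIs), 179 CPM in corpus (739 UMIs) and 1.32 CPM in testis (62 UMIs). In caput it ranked 2 of 33695 detected features by UMIs, a rank not scaled by transcript length. CLU reached 2074 CPM in caput (27366 UMIs), 119 CPM in corpus (493 UMIs) and 29.3 CPM in testis (1375 UMIs), and ranked 20 in caput. These sums mix the makeup of a library with the level per cell: fewer cells of a type and less RNA per cell cannot be told apart in them. Corpus levels depended on which cells were kept, since only 10.5% of corpus cells had 500 genes. Among those cells BSPH1 stood at 631 CPM and CLU at 344 CPM in corpus, and with every corpus cell weighted equally they stood at 96.8 and 75.9 CPM.

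Over whole libraries, BSPH1 was 38.4-fold (35.7 to 41.3) and CLU 17.4-fold (15.9 to 19.1) higher in caput than in corpus. Both were called, as were 2.25% of the 17750 features tested in that direction. Among cells with at least 500 genes the ratios fell to 10.9 for BSPH1 and 6.01 for CLU. Against testis, caput was 5191-fold (4049 to 6771) higher for BSPH1 and 70.9-fold (67.1 to 74.8) higher for CLU. In that comparison 43.9% of features passed the same rule, so a call there says little about these 2 genes. Corpus was 135-fold (104 to 178) higher than testis for BSPH1 and 4.07-fold (3.66 to 4.51) for CLU, which did not pass. There 38.9% of features were called. The 3 comparisons share libraries with each other.

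Within the caput, both genes were highest in luminal epithelial cells, the secretory lining of the duct. Cells were clustered in each library without BSPH1 and CLU, so their levels over clusters did not shape the clusters. Clusters 2, 3, 8 and 9 of the caput carried luminal epithelial markers such as lipocalins and keratins, and together counted 2519 cells. They held 26.8% of the library's UMIs, 74.0% of its BSPH1 UMIs and 78.0% of its CLU UMIs. Summed over the 4 clusters, BSPH1 stood at 18925 CPM and CLU at 6039.6 CPM. BSPH1 ranked first by UMIs in this class, ahead of NPC2 (18765 CPM), a sterol carrier of epididymal fluid, and SPINK2 (16604 CPM), a protease inhibitor. CLU ranked 8 among genes with a symbol. Its neighbours were the ribosomal RPS6 (6155 CPM) and the secreted EDDM13 (6119 CPM) above and ITM2B (4496 CPM) and the ribosomal RPL10 (4416 CPM) below.

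The caput luminal clusters put BSPH1 and CLU in different orders, and cluster 8 stood lowest for BSPH1 and highest for CLU. BSPH1 was at 34662 CPM in cluster 9 (208 cells), 25420.3 CPM in cluster 3 (875 cells), 15817 CPM in cluster 2 (1054 cells) and 4083 CPM in cluster 8 (382 cells). Every step in that order exceeded counting error: cluster 9 was 1.36-fold (1.33 to 1.39) above cluster 3, cluster 3 was 1.61-fold (1.58 to 1.64) above cluster 2, and cluster 2 was 3.87-fold (3.71 to 4.04) above cluster 8. From the top to the bottom the BSPH1 ratio was 8.49 (8.12 to 8.87). CLU was at 11716 CPM in cluster 8, 6387 CPM in cluster 3, 6304 CPM in cluster 9 and 3191 CPM in cluster 2. Clusters 3 and 9 did not differ in CLU beyond counting error, at a ratio of 1.01 (0.965 to 1.06). Cluster 8 was 1.83-fold (1.78 to 1.89) above cluster 3 and 3.67-fold (3.53 to 3.81) above cluster 2.

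The leading genes of cluster 8 with a symbol were the lipocalins LCN8, LCN6 and PTGDS, the cystatin CST11, the beta-defensins DEFB124, DEFB114 and DEFB127, and SLC7A3. Those of cluster 9 were other beta-defensins (DEFB129, DEFB116, DEFB135, DEFB136) with C14H16orf89, ECRG4 and RNASE12. These genes define the clusters and are not results. In all 7 clusterings run, the luminal cluster lowest in BSPH1 was the one highest in CLU. The cluster lowest in CLU was less stable. In the main clustering it was cluster 2, which did not have DEFB119 among its leading genes. In every other clustering it had DEFB119 among them, as main cluster 3 does. Which luminal cluster was lowest in CLU thus depended on the clustering. The highest-to-lowest ratio over luminal clusters lay between 6.82 and 8.59 for BSPH1 and between 2.32 and 4.27 for CLU.

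**Figure D1:**
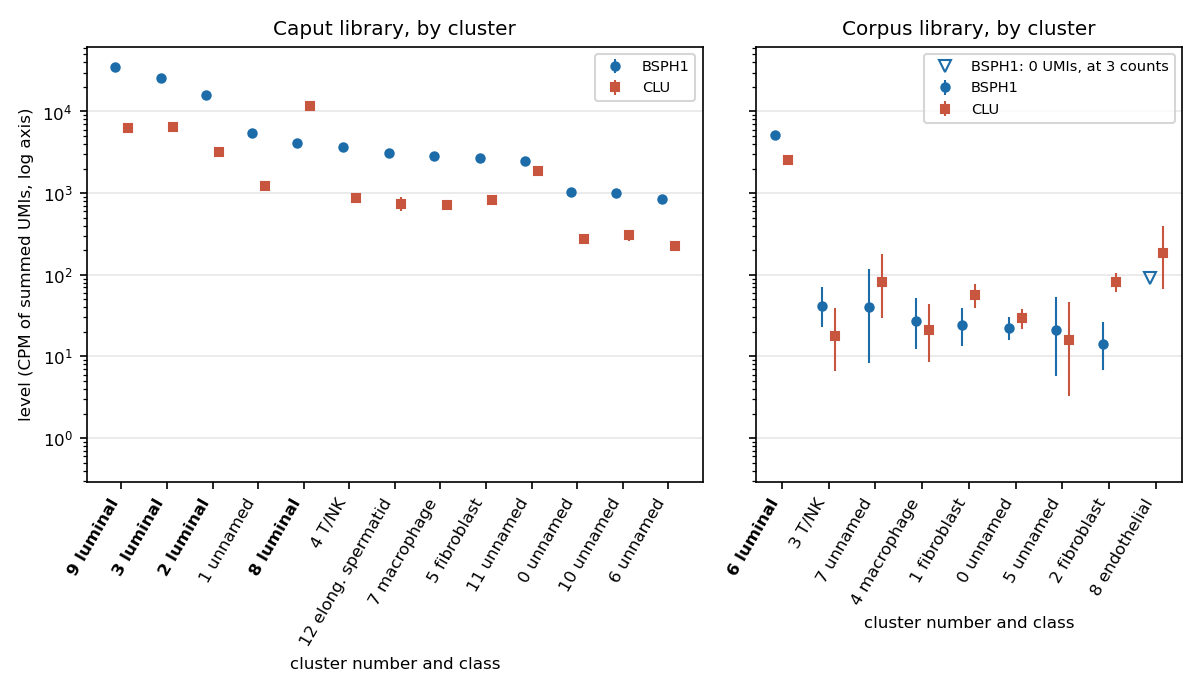
Level of BSPH1 (circles) and CLU (squares) in every cluster of the caput (left) and corpus (right), in CPM on a log axis, clusters ordered by BSPH1; bars are 95% Poisson intervals, luminal clusters are in bold, and the open triangle marks 0 UMIs, drawn at 3 counts. Caput cluster 8 has the top CLU level (11716 CPM) with a BSPH1 level (4083 CPM) under those of luminal clusters 9, 3 and 2, and corpus cluster 6 stands above all other corpus clusters for both genes.

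Cells of a cluster shared its balance of the 2 genes. The median cell of cluster 9 gave 3.33% of its UMIs to BSPH1 (10th to 90th percentile, 2.21% to 4.81%), against 0.151% (0% to 0.885%) in cluster 8. For CLU the median was 0.424% in cluster 9 and 0.944% in cluster 8 (0.195% to 2.23%). The bulk of cells in these 2 clusters thus overlapped for CLU and not for BSPH1. To compare detection at one depth, each cell was thinned to 300 UMIs. In cluster 9, 72.1% of cells then had both transcripts, 27.9% BSPH1 alone and 0 of 208 CLU alone, which allows a share of up to 1.44%. Cluster 8 had 33.8% with both, 8.38% with BSPH1 alone and 51.3% with CLU alone. Clusters 2 and 3 resembled cluster 9 in that few cells had CLU alone (3.51% and 1.14%).

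**Figure D2:**
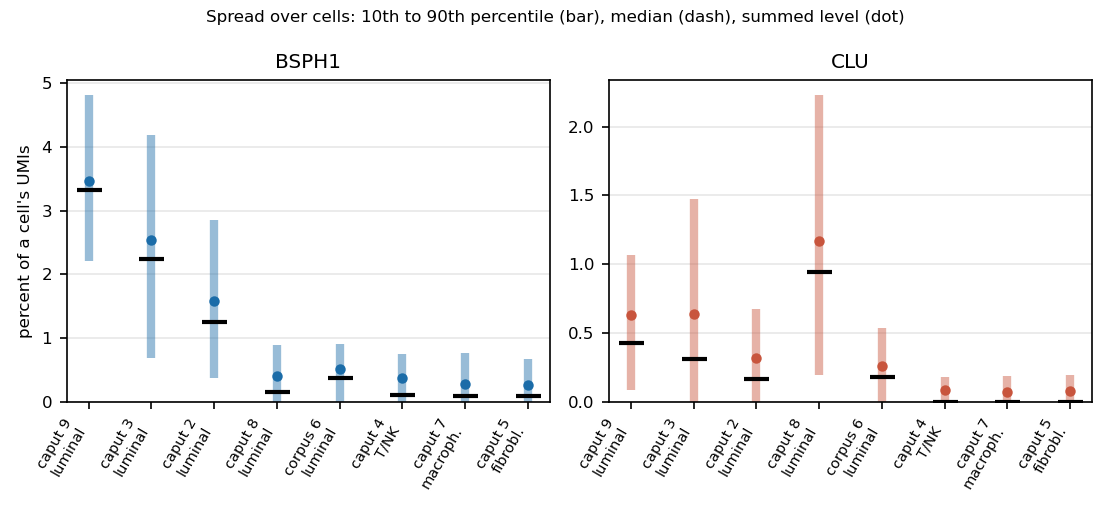
Percent of a cell's UMIs given to BSPH1 (left) and CLU (right) in 5 luminal clusters and 3 other caput classes; bars run from the 10th to the 90th percentile over cells, dashes are medians and dots the summed level. For BSPH1 the bar of caput cluster 9 (2.21% to 4.81%) lies wholly above that of cluster 8 (0% to 0.885%), while for CLU cluster 8 has the top median (0.944%).

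Other caput classes carried both genes at lower levels. BSPH1 stood at 3670.4 CPM in T or NK-like cells (846 cells), 3101 CPM in elongating spermatid-like cells (87 cells), 2869.7 CPM in macrophage-like cells (435 cells) and 2688 CPM in fibroblast-like cells (690 cells). CLU stood at 874, 739, 716 and 819 CPM in the same classes. In luminal cells BSPH1 was 5.16-fold (4.999 to 5.32) and CLU 6.91-fold (6.49 to 7.36) above T or NK-like cells. After thinning, 36.5% of T or NK-like cells had a BSPH1 UMI and 14.3% a CLU UMI, at a median of 1193 UMIs per cell. The luminal shares were 86.3% and 59.1%, at a median of 1167 UMIs. Without thinning the shares were 71.7% and 37.4% in T or NK-like cells and 96.0% and 86.0% in luminal cells.

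BSPH1 in caput cluster 8 was therefore only 1.11-fold (1.06 to 1.17) above T or NK-like cells, a class not known to make it. Its thinned share of cells with a BSPH1 UMI was 42.1%, at a median of 1296.5 UMIs, against 36.5% in T or NK-like cells. How much of the level in cluster 8 came from free RNA was not tested. CLU in cluster 8 was 13.4-fold (12.5 to 14.3) above the same class.

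In fibroblast-like, macrophage-like and T or NK-like cells of the caput, both genes lay in the range of other luminal secretory genes. As a percent of the luminal level, BSPH1 stood at 19.4% in T or NK-like cells, 15.2% in macrophage-like cells and 14.2% in fibroblast-like cells. CLU stood at 14.5%, 11.8% and 13.6%. The median over 10 other luminal secretory genes was 16.3%, 14.4% and 14.4% in those classes. In elongating spermatid-like cells the 10 genes ranged from 14.7% (EDDM13) to 33.5% (LCN6), with BSPH1 at 16.4% and CLU below all of them at 12.2%. In fibroblast-like cells the genes ranged from 10.3% (RNASE10) to 26.7% (PTGDS). PTGDS was also carried by fibroblast-like cells of the corpus, at 511 CPM against 40.1 CPM in its luminal cells. Of the genes not made by immune cells, DEFB119 came next in caput fibroblast-like cells at 17.2%. CD52, which lymphocytes and macrophages also make, reached 129% in T or NK-like and 125% in macrophage-like cells. BSPH1 UMIs in these classes were uneven over cells: the 5% of T or NK-like cells with the most held 48.2% of the class's BSPH1 UMIs, and 1 cell had 143. In luminal cells the same 5% held 23.0%. Whether free RNA or doublets gave these UMIs was not tested.

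**Figure D3:**
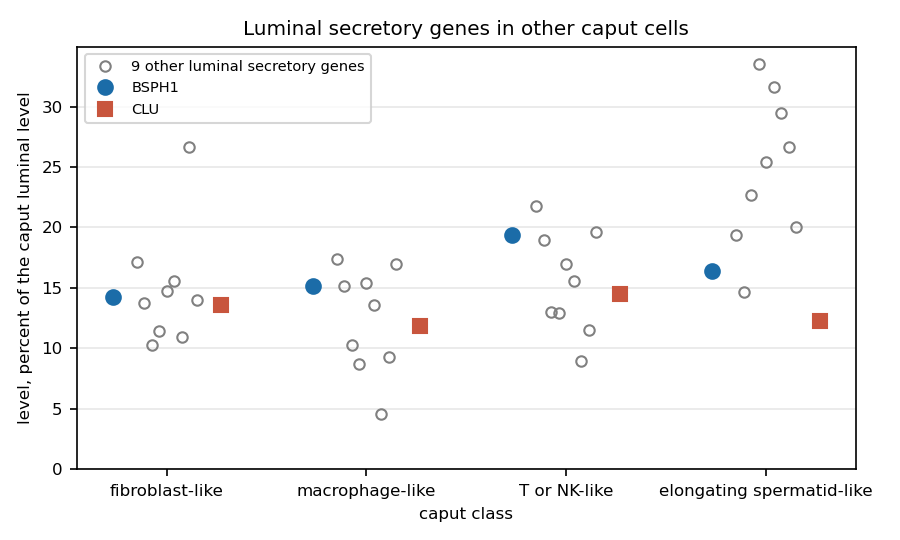
Level of each gene in 4 caput classes as a percent of its level in caput luminal cells; filled symbols are BSPH1 and CLU, open circles 9 other luminal secretory genes (CD52, which immune cells make, is left out; the highest circle in fibroblast-like cells is PTGDS). BSPH1 (14.2% to 19.4%) and CLU (11.8% to 14.5%) fall among the open circles in the first 3 classes, and CLU (12.2%) lies below all of them in elongating spermatid-like cells.

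The caput clusters without a name also varied. Cluster 1 (1286 cells) carried no marker set and gave 8.92% of its UMIs to genes of 500 kb or longer (median cluster, 4.25%). It had 5518 CPM of BSPH1 and 1212 CPM of CLU, above the named classes outside the epithelium for both genes. Its BSPH1 level was also above that of luminal cluster 8 (4083 CPM), while its CLU level was below that of every luminal cluster. Clusters 0 and 6, where such long genes took 11.8% and 12.2%, were low, with 1037 and 840.4 CPM of BSPH1 and 277 and 224 CPM of CLU. Cluster 10, with germ cell markers of mixed stage, had 1007 and 305 CPM. Cluster 11 (109 cells) mixed markers of clear or narrow cells, which acidify the lumen, with endothelial ones. Its CLU level, 1883 CPM, exceeded that of every named non-luminal class, while its BSPH1 level, 2451 CPM, did not.

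In the corpus both genes were concentrated in the luminal class, cluster 6 (156 cells). It held 3.02% of the library's UMIs but 87.3% of its BSPH1 and 65.3% of its CLU UMIs. BSPH1 stood there at 5167 CPM (4776 to 5582; 645 UMIs) and CLU at 2579.7 CPM (2306 to 2877; 322 UMIs). BSPH1 ranked 16 and CLU 29 by UMIs within the cluster. After thinning, 70.3% of its cells had a BSPH1 UMI and 43.9% a CLU UMI. In T or NK-like cells of the corpus the shares were 1.23% and 0.613%, at a median of 360 UMIs against 676.5 in the luminal class. Before thinning they were 80.1% and 66.0% in luminal and 1.68% and 0.721% in T or NK-like cells.

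Outside the corpus luminal class few UMIs were counted, and the 2 genes differed in where they lay. BSPH1 had 42.1 CPM in T or NK-like cells (14 UMIs), 27.3 CPM in macrophage-like cells (9 UMIs) and 18.9 CPM in fibroblast-like cells (25 UMIs). CLU had 18.0 CPM (6 UMIs), 21.2 CPM (7 UMIs) and 69.7 CPM (92 UMIs) in the same classes. CLU in fibroblast-like cells was thus 3.87-fold (1.71 to 10.8) above T or NK-like and 3.28-fold (1.53 to 8.39) above macrophage-like cells, while BSPH1 was 0.450-fold (0.225 to 0.937) and 0.693-fold (0.313 to 1.69). Both fibroblast-like clusters had it, with 56.0 CPM in cluster 1 and 82.0 CPM in cluster 2, which did not differ beyond counting error (1.46, 0.944 to 2.30). In 70 endothelial-like cells CLU had 6 UMIs, or 183 CPM (67.2 to 399), and BSPH1 had 0 of 32767 UMIs, which allows up to 91.6 CPM.

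As a percent of the corpus luminal level, CLU stood at 0.699% in T or NK-like cells, 0.823% in macrophage-like cells and 2.70% in fibroblast-like cells. BSPH1 stood at 0.814%, 0.528% and 0.366%. LTF, a secreted iron-binding protein and the reference gene used here for the corpus, stood at 0.273%, 0.591% and 0.315%. CD52, which immune cells also make, stood at 0.937%, 0.829% and 0.625%. A single reference gene gives no range. The corpus clusters without a name (0, 5 and 7) had 21.0 to 40.8 CPM of BSPH1 and 15.8 to 81.6 CPM of CLU.

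Between the luminal classes of the 2 segments, the caput level was 3.66-fold (3.39 to 3.96) higher for BSPH1 and 2.34-fold (2.097 to 2.62) higher for CLU. Neither passed the 4-fold rule, which 0.875% of 6056 features passed toward caput. Both passed a 2-fold rule, as did 2.01% of features toward caput and 1.16% toward corpus. The median feature was at a log2 ratio of 0.50 toward caput. For CLU the 2-fold call was lost without caput cluster 8, at a ratio of 1.89 (1.70 to 2.12), while the BSPH1 ratio was 4.25 (3.93 to 4.596). It was also lost among cells with at least 500 genes, at 2.04 (1.80 to 2.32), where BSPH1 stood at 3.18 (2.91 to 3.47). Subtracting the level of T or NK-like cells in each library gave 2.98 for BSPH1 and 2.02 for CLU. The subtraction and the removal of cluster 8 were chosen after the values were seen. Fibroblast markers, summed over 11 genes, stood at 193 to 471 CPM in the caput luminal clusters and 1434 CPM in the corpus one, where LUM, DPT, TCF21 and PI16 were at 0. Summed macrophage markers (12 genes) ranged from 97.3 to 171 CPM and were 120 CPM in corpus. Their part in the ratios was not tested.

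Taken one at a time, the caput luminal clusters differed from the corpus luminal class in both directions for BSPH1. Cluster 9 was 6.71-fold, cluster 3 4.92-fold and cluster 2 3.06-fold above corpus, and cluster 8, whose level was close to that of T or NK-like cells, was below it at 0.790-fold (0.724 to 0.863). For CLU all 4 clusters were above corpus, by 4.54-fold in cluster 8, 2.48-fold in cluster 3, 2.44-fold in cluster 9 and 1.24-fold (1.10 to 1.39) in cluster 2.

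Ratios between segments were wider in the non-luminal classes. In fibroblast-like cells caput was 142-fold (96.0 to 220) higher for BSPH1 and 11.8-fold (9.47 to 14.7) for CLU, and 0.939% of 5961 features were called toward caput. In macrophage-like cells the ratios were 105 (55.2 to 230) and 33.7 (16.2 to 84.2), with 2.15% of 2135 features called. In T or NK-like cells they were 87.3 (52.0 to 160) and 48.5 (22.2 to 132), with 1.93% of 3421 features called. Both genes were called in all 3 classes. Over other clusterings and cell filters the BSPH1 ratio ranged from 88.1 to 209 in fibroblast-like and from 62.7 to 146 in macrophage-like cells, and the CLU ratio from 24.7 to 61.4 in T or NK-like cells. The summed luminal markers (24 genes) were also higher in caput, though by less than either member. They stood at 2131 to 2862 CPM in the 3 caput classes and at 390 to 631 CPM in the corpus clusters of the same classes. In luminal cells, however, the marker sum was higher in corpus (39393 CPM) than in the caput clusters (9501 to 24173 CPM). BSPH1 and CLU were higher in the caput luminal class, so their ratios and those of the markers are not on a like footing. The part of luminal markers in the result was not tested.

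**Figure D4:**
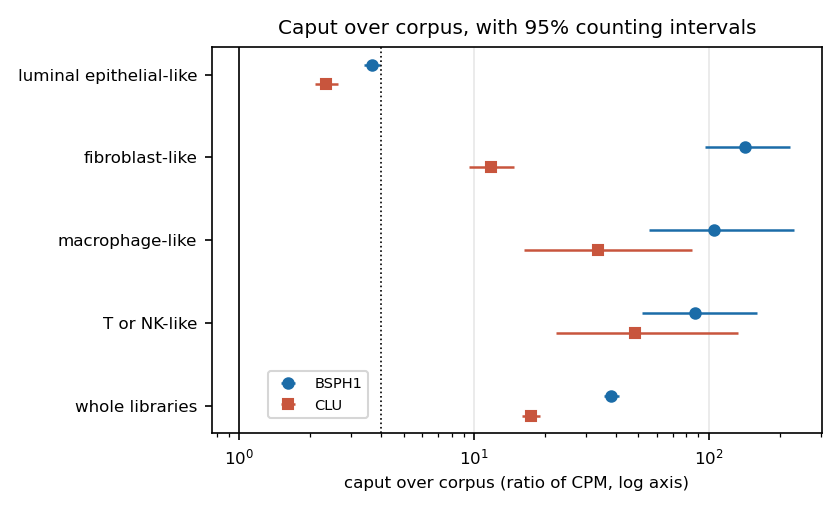
Ratio of the caput to the corpus level, on a log axis, for BSPH1 (circles) and CLU (squares) in 4 classes and in whole libraries; bars are 95% counting intervals, the solid line is 1 and the dotted line 4. The luminal ratios (3.66 and 2.34) lie below 4 and the others lie between 11.8 and 142.

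Counting BSPH1 UMIs per CLU UMI shows where their balance shifted, since gene length cancels when such ratios are compared. The ratio was 5.50 (5.24 to 5.77) in caput cluster 9, 4.96 in cluster 2, 3.98 in cluster 3 and 0.349 (0.333 to 0.365) in cluster 8. Over the whole caput library it was 3.30 (3.26 to 3.35). Outside the epithelium it was above that in T or NK-like cells, at 4.20 (3.92 to 4.50), and in macrophage-like cells, at 4.01 (3.63 to 4.43). In fibroblast-like cells it was close to the library's value, at 3.28 (3.04 to 3.55). Cluster 11 stood apart at 1.30 (1.12 to 1.52). In the corpus the ratio was 2.003 (1.75 to 2.30) in luminal cells and 0.272 (0.167 to 0.427) in fibroblast-like cells. Across the 13 caput clusters, the 2 genes' levels had a Pearson r of 0.82 on a log2 scale, against 0.77 over 9 corpus clusters and 0.080 over 14 testis clusters. Clusters of a library share its cells and free RNA, so these are descriptions.

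**Figure D5:**
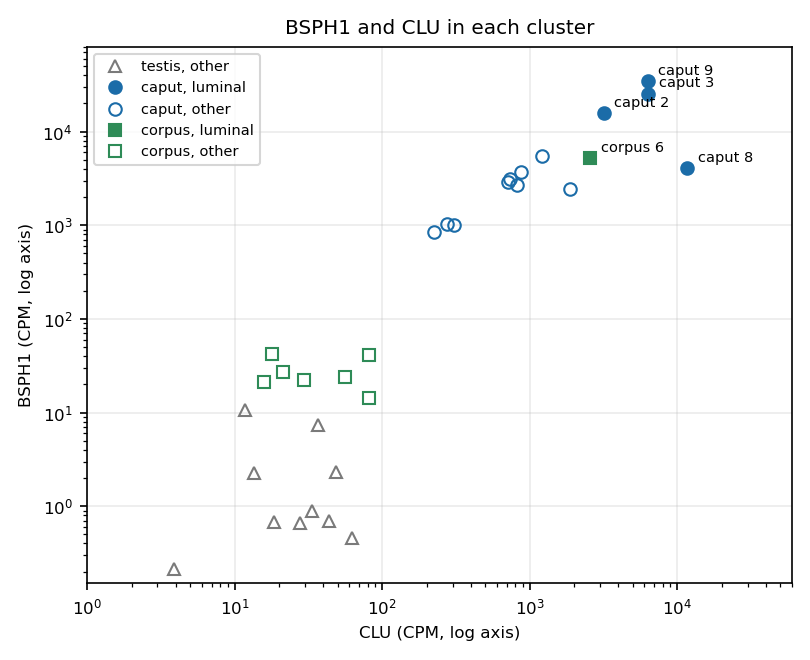
BSPH1 against CLU in each cluster with UMIs of both genes, in CPM on log axes; filled symbols are luminal clusters, open ones all others, triangles testis, circles caput and squares corpus. Most caput clusters lie along a band, and cluster 8 (0.349 BSPH1 UMIs per CLU UMI) lies far to its right.

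Other genes with fibronectin type II domains were mostly low in luminal cells. Of 13 measured, 7 had enough UMIs to be tested between the luminal classes, and BSPH1 was the one that passed the 2-fold rule. The other 6 passed in neither direction. Over all features 2.01% passed toward caput and 1.16% toward corpus. The list's median log2 ratio was 0.45 against 0.50 over all features tested, and the filter on UMIs shapes both medians. ELSPBP1, the epididymal sperm-binding protein and a neighbour of BSPH1 in the RefSeq table, stood at 3069 CPM in caput and 2235 CPM in corpus, a ratio of 1.37 (1.22 to 1.55). Over caput clusters it had the same order as BSPH1, with 8519 CPM in cluster 9, 3421 CPM in cluster 3, 2519 CPM in cluster 2 and 667 CPM in cluster 8. LY75, an endocytic receptor, stood at 40.4 CPM in caput and 32.0 CPM in corpus luminal cells. FN1, a matrix protein of fibroblasts, had 11.6 and 16.02 CPM.

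Most sperm-coating genes of the epididymis that could be tested were higher in corpus luminal cells, unlike BSPH1. Among 13 tested of 15 measured, 8 passed toward corpus, 1 toward caput and 4 in neither direction, with a median log2 ratio of -2.20. Over all features 1.16% passed toward corpus and 2.01% toward caput. Some of the 8, EDDM3B among them, also served as markers that named the corpus luminal cluster. Members with few caput UMIs could enter the test only through corpus, where they were high. NPC2 stood at 18765 CPM in caput and 18002 CPM in corpus, a ratio of 1.04 (0.999 to 1.09). ADAM7, a membrane protein passed to sperm, stood at 4317 and 5496 CPM, and reached 13166 CPM in caput cluster 8. EDDM3B, a secreted epididymal protein, was 4.59-fold (4.16 to 5.05) higher in corpus, at 3934 against 857 CPM. ELSPBP1 is counted in this list too.

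Extracellular chaperone and lipoprotein genes split between the segments. Of 5 tested, CLU and PTGDS passed toward caput and APOE and APOD toward corpus. Over all features 2.01% passed toward caput and 1.16% toward corpus. PTGDS, prostaglandin D synthase and a lipocalin, stood at 1859 CPM in caput and 40.1 CPM in corpus luminal cells (46.4-fold, 19.9 to 143), and at 9078 CPM in caput cluster 8. APOE, a lipid carrier, was 7.99-fold (6.10 to 10.4) higher in corpus, at 601 against 75.2 CPM. APOD, another lipid carrier, was 8.64-fold (6.63 to 11.2) higher in corpus, at 633 against 73.2 CPM. Fibroblast-like cells held far more of both, with 9068 CPM of APOE and 6810 CPM of APOD in caput and 23095 and 17728 CPM in corpus. The summed fibroblast markers were also higher in the corpus luminal cells (1434 CPM) than in the caput luminal clusters (193 to 471 CPM), and their part in these 2 differences was not tested. The list's median log2 ratio, 1.23, was the value of CLU itself, so it does not describe the other genes.

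Of 7 clusterin receptors, 2 could be tested and neither passed. LRP2 (megalin), an endocytic receptor of absorptive epithelia, stood at 608 CPM in caput and 216 CPM in corpus luminal cells, a ratio of 2.81 (1.93 to 4.28). By caput cluster it had 739 CPM in cluster 3, 584 CPM in cluster 8, 545 CPM in cluster 2 and 417 CPM in cluster 9. SCARB1, a lipoprotein receptor, had 16.1 and 16.02 CPM. LRP1 and LRP8 were at 5.94 and 6.50 CPM in caput luminal cells, with 1 and 0 UMIs in corpus.

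Among genes of protein folding in the secretory pathway none passed toward caput. Of 8 tested among 16, 1 passed toward corpus (PDIA6, a disulfide isomerase) and 7 in neither direction, with a median log2 ratio of -0.85. All features tested had a median of 0.50, with 1.16% passing toward corpus and 2.01% toward caput. HSPA5, the main chaperone of the endoplasmic reticulum, stood at 1091 CPM in caput and 2011 CPM in corpus luminal cells. HSP90B1, its HSP90 relative, stood at 1472 and 2347 CPM, and PDIA3 at 492 and 993 CPM. SEC61B, part of the translocation channel, stood at 645 and 344 CPM.

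Heat shock and stress genes included 5 tested of 13, and 2 passed toward corpus. These were the immediate-early genes FOS, 15.6-fold (11.3 to 21.4) higher at 513 against 32.8 CPM, and JUN, 11.1-fold (8.19 to 14.8) higher at 529 against 47.8 CPM. Non-luminal classes held more of both. In corpus, FOS stood at 1560 CPM in fibroblast-like, 4224 CPM in macrophage-like and 3172 CPM in T or NK-like cells. JUN stood at 1057, 1978 and 1184 CPM there. In caput the same classes had 571, 2657 and 1970 CPM of FOS and 998, 1759 and 935 CPM of JUN. Whether RNA of such cells added to the luminal levels was not tested. Tissue digestion is known to induce FOS and JUN, and their part in the ratios between segments was not tested. HSPB1, a small heat shock protein, stood at 3429 CPM in corpus and 1591 CPM in caput, and HSP90AA1 at 873 and 779.7 CPM. The list's median log2 ratio was -1.11, against 0.50 over all features tested. Of those features 1.16% passed toward corpus and 2.01% toward caput.

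The genes most like BSPH1 over caput clusters were other secretory genes of luminal cells. RNASE9, a secreted ribonuclease-like protein, had a Pearson r of 0.99 over 13 clusters, from 231 to 8301 CPM with its top in cluster 9. WFDC11, DEFB108B, SPINK8 and PATE2 followed, all with their top in cluster 9. For CLU the nearest were AGA, a lysosomal enzyme, KRTCAP3, AMOT, SEC11C, a subunit of the signal peptidase, and LDOC1, with r from 0.97 to 0.98. AMOT and LDOC1 had their top in cluster 8 and the other 3 in cluster 9. In the corpus the genes nearest to BSPH1 over 9 clusters were ELSPBP1 (r of 0.99), WFDC9, PERP, LTF and RNASE12, and those near to CLU included PDIA6 (r of 0.95), DEFB116, MGST2 and CHP1. All of these had their top in the luminal cluster, which dominates these correlations.

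In the testis both genes varied over clusters, and BSPH1 was the lower of the 2 over the library. CLU was at 62.0 CPM (56.1 to 68.3; 407 UMIs) in round spermatid-like cells (cluster 1, 1162 cells). It was 15.9-fold (11.3 to 23.1) below that in cluster 0, at 3.89 CPM, and lowest in cluster 9, at 1.83 CPM (3 UMIs). Clusters 5, 3, 7 and 4 lay between, at 48.5, 43.5, 37.0 and 33.6 CPM. Clusters 5 and 7 also had round spermatid as their leading marker set, but stayed unnamed because stages were mixed. CLU was at 12.6 CPM in elongating spermatid-like cells and 25.5 CPM in fibroblast-like cells. Of round spermatid-like cells, 28.3% had a CLU UMI at a median of 4997 UMIs, against 2.19% in cluster 0 at a median of 5178. No cluster was named Sertoli, so a level in the supporting cells known to secrete CLU is not given.

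BSPH1 had 9 UMIs in testis cluster 10, elongating spermatid-like, or 10.6 CPM (4.83 to 20.1), and 18 UMIs in cluster 7, or 7.31 CPM (4.33 to 11.6). Cluster 0, the largest, had 2 UMIs, or 0.216 CPM (0.0262 to 0.781). No other testis cluster had more than 10 BSPH1 UMIs, and clusters 9, 11, 12 and 13 had 0. Cluster 12 (64 cells) was also elongating spermatid-like, and its 0 UMIs allow up to 7.09 CPM. With clusters 10 and 12 summed, elongating spermatid-like cells stood at 7.06 CPM (3.23 to 13.4). The genes nearest to BSPH1 over the 14 clusters were SMIM23, CSNK1G1, KIAA2012, WIF1 and TSPOAP1, all with their top in cluster 10. Those nearest to CLU were HSPA12A (r of 0.97), COL27A1 and NUTM1, with their top in cluster 1, and C28H6orf118 and DCST2, with their top in cluster 5.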

How the data were processed

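The deposited matrices hold UMI counts per feature and cell, whole numbers not normalized by the authors. They were written by PISA 0.12, per the file headers. Cell Ranger 2.1.1 is named, with no role, per the submitters' processing notes. The sources used here give no aligner or build. Totals per library and the limits they set are given above; PCR copies are collapsed by UMI, and intervals and floors (3 counts) cover counting error only.

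Cells with at least 200 genes were kept, and doublets were scored against 2 simulated doublets per cell (scikit-image 0.26.0). Each library was clustered alone on log counts per cell with 2000 variable genes, BSPH1 and CLU left out, and 30 principal components. Leiden clustering (leidenalg 0.10.2, igraph 0.11.9, scikit-learn 1.9.0, seed 0) ran at resolution 1.0 on 15 neighbours, giving 14, 13 and 9 clusters. Variable genes were ranked by variance of Pearson residuals. That method replaced a ranking by binned dispersion after a first clustering had been seen, and the first method is kept as an alternative.

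A marker counted in a cluster with 5 UMIs or more, found in 5% of its cells or more, whose CPM plus 10 was 2 or more times the median of the remaining clusters. A class name ("-like") required 3 markers or more, being 20% of those measured, with a log2 ratio averaging 0.6. Clusters stayed unnamed where genes of 500 kb or more took at least 1.5 times the median cluster's share with weak markers, or where lineages or stages were mixed. These thresholds were set with clusters in view, and rebuilt names can differ from the study's. Testis cluster 8 matched T or NK markers but was led by CST3, CD74, FOS and JUN, and is not used by name.

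Ratios of summed counts have exact conditional binomial intervals, levels exact Poisson intervals and shares Clopper-Pearson intervals (scipy 1.17.1). The ratio code was tested on simulated data. A feature was tested where the side with the higher level held 50 UMIs or more. Named genes were the members, the 5 genes per library whose log2(CPM + 10) over clusters correlated best with each, the 2 nearest in level on each side in caput luminal cells, and up to 4 per list with the most UMIs. A gene that this rule names is not reported here. PDIA6 and the genes beside cluster names fall outside that rule for their list and were chosen after their values were seen. The members and gene lists were chosen with earlier results of these data known. Other steps used Python 3.11.15, numpy 2.4.6, pandas 2.3.3 and matplotlib 3.10.9.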

Additional observations from a re-analysis of the deposited data

How the results depend on the processing

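No ratio or level that was rerun reversed its direction under the alternatives: other cell filters, clusterings, denominators and weights of cells. The share of luminal cells with a CLU UMI did reverse between segments with the depth of thinning. At 300 UMIs it was 59.1% in caput and 43.9% in corpus. At 500 UMIs it was 69.8% in caput and 73.3% in corpus, where 105 cells were deep enough. The luminal cluster lowest in CLU did change with the clustering. With at least 500 genes per cell the luminal ratios were 3.18 (BSPH1) and 2.04 (CLU), the whole-library ratios 10.9 and 6.01, and corpus levels 631 and 344 CPM. Less the level of T or NK-like cells the luminal ratios were 2.98 and 2.02, and without caput cluster 8 they were 4.25 and 1.89. With variable genes by binned dispersion the fibroblast-like ratios were 88.1 and 8.76. Weighting cells equally gave 6401 (BSPH1) and 1824 CPM (CLU) in caput and 96.8 and 75.9 CPM in corpus. A denominator without the 20 most abundant genes gave 7365 and 2229 CPM in caput, 197 and 132 CPM in corpus, and 32.0 CPM for CLU in testis. The cause of these shifts was not tested.

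The ratio of the highest to the lowest caput luminal cluster for BSPH1 was 6.82 with at least 500 genes, 7.52 without the 5% of cells with the highest doublet scores and 7.62 with binned dispersion. For CLU it was 2.32 at Leiden resolution 0.5, 4.27 at 2.0 and 2.89 with binned dispersion. Luminal cells with a BSPH1 or CLU UMI made up 91.8% and 69.8% in caput and 84.8% and 73.3% in corpus when thinned to 500 UMIs, and 96.0% and 86.0%, and 80.1% and 66.0%, without thinning.

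Counts of features beyond 4-fold (toward caput, toward corpus) were 53 and 43 in luminal, 66 and 6 in T or NK-like, 56 and 2 in fibroblast-like and 46 and 8 in macrophage-like cells, and 400 and 49 in whole libraries. Beyond 2-fold they were 122 and 70, 141 and 22, 119 and 17, 112 and 45, and 1244 and 314. With 10 UMIs enough on the higher side, 108 passed toward corpus in luminal, 94 toward caput in fibroblast-like and 15 toward corpus in macrophage-like cells. The T or NK-like ratios were not run at 500 genes, since no corpus cluster of 50 cells was then so named. Leaving out a replicate was not possible with 1 library per tissue. No paired analysis was possible because each tissue had 1 library. Corpus depth limits the non-luminal values, which rest on at most 92 UMIs of a gene per class.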
